A study of Chlorocebus sabaeus with 10 samples.

Results

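The 10 genes described here carry out or control de novo lipogenesis, the making of new fatty acids from sugar carbon. They were ACLY, ME1, ACACA, ACACB, FASN, ELOVL6, SCD, THRSP, SREBF1 and MLXIPL, chosen by symbol out of 23352 gene symbols in a table of 28078 transcripts. Each symbol had a single transcript in the table. Liver biopsies of 10 female vervet monkeys (Chlorocebus sabaeus), all kept on chow beforehand, were profiled by RNA-Seq after 6 weeks on a high fructose diet (HFr, n = 5) or on chow (Chow, n = 5), with 1 library per animal. No genetic change or drug distinguished the groups, and diet was the only labelled difference.

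Fructose that reaches the liver is broken down to small carbon units without the main brake on glucose breakdown, and part of that carbon can leave the mitochondria as citrate. ATP citrate lyase turns the citrate into acetyl-CoA, acetyl-CoA carboxylase makes malonyl-CoA from it, fatty acid synthase builds a saturated chain, and an elongase and a desaturase lengthen it and add a double bond. In liver, transcription of these enzymes is driven mainly by SREBP-1c, encoded by SREBF1 and activated by insulin, and by ChREBP, encoded by MLXIPL and activated by products of sugar breakdown. Whether the transcripts of this pathway changed with the HFr diet is the question that the comparison addresses here.

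Total estimated counts per animal lay between 2977282 and 4992505, of which mitochondrial transcripts took from 34.7% to 73.6%, so that 864571 to 2657103 counts were left for nuclear transcripts. All 10 hepatocyte markers examined had counts, and their summed level ranged from 46477 to 69997 CPM on HFr and from 39742 to 77127 CPM on Chow. Values called normalized counts below are estimated counts scaled to a common depth by TMM and given as CPM, per 1000000 counts of the scaled library, where TMM is the trimmed mean of M values. Because they were not divided by transcript length, levels are compared between animals and not between genes. Nothing in the labels says how the animals were related, so whether they were independent, as the p-values assume, is not known. The p-values of the diet comparison set the difference between the diets against the spread among animals of the same diet.

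No difference between the diets was detected for any lipogenic gene. Of the 8 genes with enough counts for edgeR's quasi-likelihood test, 0 had an unadjusted p under 0.05, against 4.29% of the 7948 tested transcripts (2.06% higher and 2.23% lower on HFr). The HFr and Chow animals overlapped for all 8 of these genes, where 0.541% of tested transcripts did not overlap. Of the 8 fold changes, 4 were above 0, and their median was -0.02 on the log2 scale, beside -0.00 for all tested transcripts. The adjusted p was 0.9996 for each of the 8 genes, and no transcript in the table passed 0.05 after adjustment (smallest adjusted p = 0.872, with 341 transcripts at an unadjusted p under 0.05 and 2 adjusted calls from DESeq2).

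**Figure D1:**
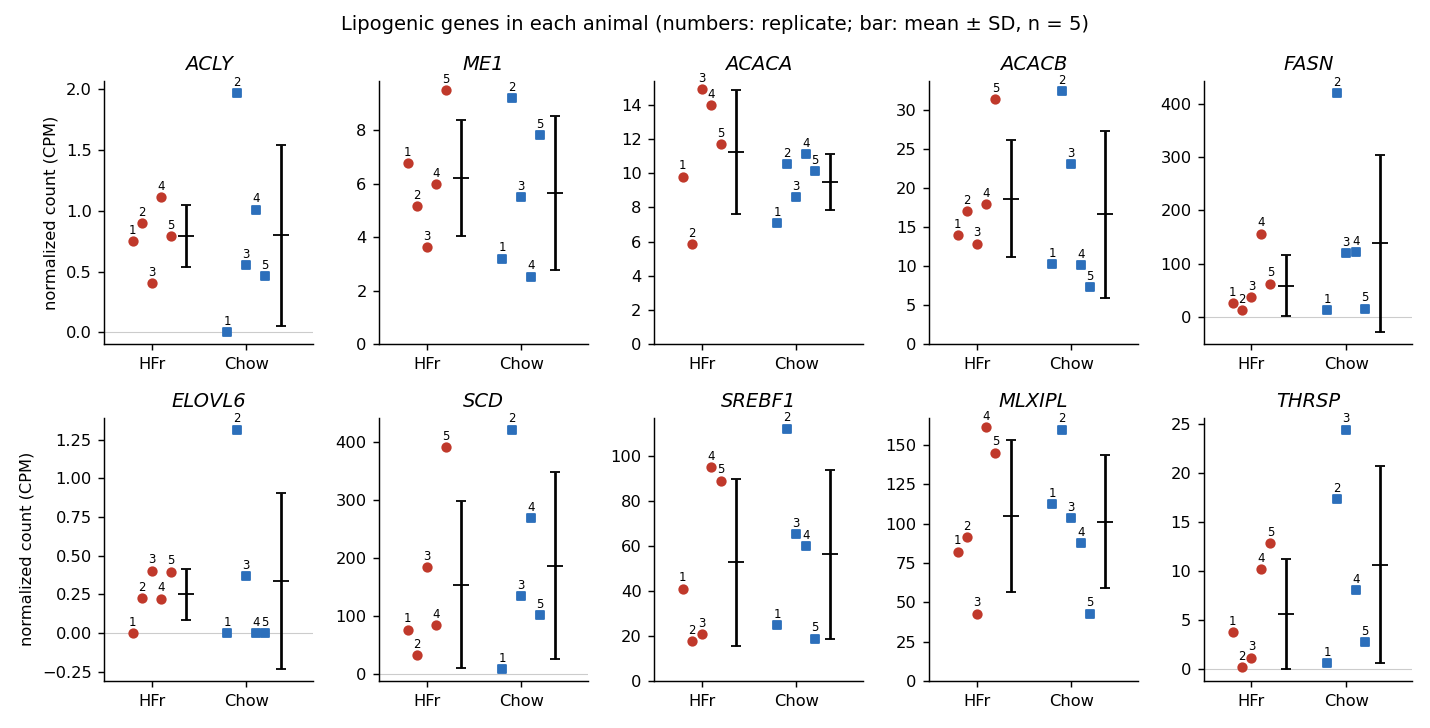
Normalized counts (CPM, linear axes that differ between panels) of the 10 lipogenic genes in each animal, red circles for HFr and blue squares for Chow, numbered by replicate, with mean ± SD (n = 5) as bars. The diets overlap in every panel, and Chow replicate 2 is the highest animal for 6 genes (ACLY, ACACB, FASN, ELOVL6, SCD and SREBF1).

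Carbon and NADPH supply came first in the order of the pathway. ACLY (ENSCSAG00000003049, chromosome 16 of ChlSab1.1, 64333207 to 64373231), which encodes ATP citrate lyase, had very few counts. Its estimated counts in HFr replicates 1 to 5 were 2, 4, 1, 5 and 4, and in Chow replicates 1 to 5 they were 0, 9, 3, 2 and 1. The sums of 16 on HFr and 15 on Chow did not reach the count filter. For the 0 in Chow replicate 1, the limit that a count of 0 allows (3 counts) is 0.686 CPM, covering counting error only. Fitted without the filter, the log2 fold change of ACLY was 0.03 with a standard error of 0.68 (edgeR, unadjusted p = 0.969). Whether the transcript models of ACLY and ELOVL6 in the annotation used by the authors are complete was not checked here, and counts from any part of these genes outside the models would be missing from their values.

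ME1 (ENSCSAG00000017385, chromosome 13, 7887984 to 8112534) encodes cytosolic malic enzyme, which supplies NADPH for chain building. Its normalized counts in HFr replicates 1 to 5 were 6.78, 5.16, 3.63, 5.998 and 9.50. In Chow replicates 1 to 5 they were 3.20, 9.20, 5.50, 2.53 and 7.81. The highest HFr animal, replicate 5, and the highest Chow animal, replicate 2, were alike, and the means of 6.21 ± 2.18 (SD, n = 5) and 5.65 ± 2.87 (SD, n = 5) differed by less than either spread. The log2 fold change of HFr over Chow was 0.14 (95% interval -0.62 to 0.90, edgeR, unadjusted p = 0.699).

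The acetyl-CoA carboxylases make malonyl-CoA, the cytosolic enzyme ACACA for synthesis and the mitochondrial enzyme ACACB as a brake on the import of fatty acids for oxidation. ACACA (ENSCSAG00000006092, chromosome 16, 30452343 to 30705005) had the smallest spread between animals of the 8 tested lipogenic genes. Normalized counts were 9.80, 5.83, 14.9, 14.0 and 11.7 in HFr replicates 1 to 5, and 7.08, 10.5, 8.62, 11.1 and 10.1 in Chow replicates 1 to 5. All Chow values lay within the HFr range. Mean levels of 11.2 ± 3.63 (SD, n = 5) for HFr and 9.49 ± 1.63 (SD, n = 5) for Chow gave a log2 fold change of 0.25 (95% interval -0.30 to 0.80, edgeR, unadjusted p = 0.343).

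ACACB (ENSCSAG00000002837, chromosome 11, 104349573 to 104488004) was spread more widely. HFr replicates 1 to 5 had 13.9, 17.0, 12.9, 17.99 and 31.5 normalized counts, and Chow replicates 1 to 5 had 10.3, 32.4, 23.1, 10.1 and 7.35. A single HFr animal, replicate 5, stood above the other 4, which were close together, whereas the Chow animals divided into a pair above 23 and 3 animals near or below 10. The means were 18.7 ± 7.45 (SD, n = 5) and 16.7 ± 10.7 (SD, n = 5), with a log2 fold change of 0.14 (95% interval -0.66 to 0.93, edgeR, unadjusted p = 0.720).

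FASN (ENSCSAG00000002155, chromosome 16, 73982899 to 74006552), the synthase that builds the chain, had the lowest fold change of the 8 genes and one of the widest spreads in the table. In HFr replicates 1 to 5 the normalized counts were 26, 11.9, 36.7, 157 and 62.5. In Chow replicates 1 to 5 they were 11.9, 421, 120, 122 and 15.6. The lowest animals of each diet had the same level, and Chow replicate 2 stood far above every other animal, so that the highest value was 35.4 times the lowest. The means of 58.7 ± 57.8 (SD, n = 5) on HFr and 138 ± 167 (SD, n = 5) on Chow gave a log2 fold change of -1.23 with a standard error of 0.83 (edgeR, unadjusted p = 0.159). Its 95% interval ran from -2.999 to 0.54, that is from 0.125 to 1.46 times the Chow level. The value depended on single animals, being -0.18 without Chow replicate 2 and -2.01 (unadjusted p = 0.0345) without HFr replicate 4, and with scaling by library size alone it was -1.60 (unadjusted p = 0.0231). Other settings brought it closer to 0, with -0.67 from limma at either pseudocount and -0.81 with the mitochondrial percent as a covariate. None of these passed after adjustment, the smallest adjusted p of FASN over all alternatives being 0.838.

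ELOVL6, the elongase that adds carbons to the product of the synthase, likewise had few counts. ELOVL6 (ENSCSAG00000003910, chromosome 7, 57951868 to 57960273) had estimated counts of 0, 1, 1, 1 and 2 in HFr replicates 1 to 5 and of 0, 6, 2, 0 and 0 in Chow replicates 1 to 5. The limits that a count of 0 allows ranged from 0.686 to 1.52 CPM in the 4 animals without a count. Without the filter its log2 fold change was -0.59 with a standard error of 0.94 (edgeR, unadjusted p = 0.538).

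SCD (ENSCSAG00000005611, chromosome 9, 93380914 to 93398913) encodes stearoyl-CoA desaturase, which makes monounsaturated fatty acids. Its normalized counts in HFr replicates 1 to 5 were 76.9, 33.4, 184, 84.2 and 391.9. In Chow replicates 1 to 5 they were 8.91, 421, 135, 269 and 102. One animal of each diet, HFr replicate 5 and Chow replicate 2, was near 400, and the highest value was 47.3 times the lowest, that of Chow replicate 1. The means were 154 ± 144 (SD, n = 5) on HFr and 187 ± 161 (SD, n = 5) on Chow, and the log2 fold change of -0.28 had a 95% interval of -1.86 to 1.30 (edgeR, unadjusted p = 0.712). It was 0.27 without Chow replicate 2 and -0.99 without HFr replicate 5.

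For the regulators, too, no difference between the diets was detected. SREBF1 (ENSCSAG00000008412, chromosome 16, 16845491 to 16859555) had 41.1, 17.7, 21.0, 95.1 and 89.2 normalized counts in HFr replicates 1 to 5. Chow replicates 1 to 5 had 24.9, 112, 65.5, 60.1 and 18.8. Over both diets, 4 animals lay from 17.7 to 24.9, HFr replicate 1 lay between, and 5 animals lay from 60.1 to 112, with both diets in the lower and the upper set. Mean levels of 52.8 ± 37.1 (SD, n = 5) for HFr and 56.3 ± 37.5 (SD, n = 5) for Chow gave a log2 fold change of -0.09 (95% interval -1.20 to 1.01, edgeR, unadjusted p = 0.861). These are transcript levels, and SREBP-1c and ChREBP are also controlled by cleavage, by localisation and by sugar metabolites, which RNA-Seq does not measure.

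MLXIPL (ENSCSAG00000018176, chromosome 28, 9442607 to 9465528) had 82.1, 91.5, 42.8, 161 and 145 normalized counts in HFr replicates 1 to 5. Chow replicates 1 to 5 had 112, 160, 103, 87.4 and 42.7. The lowest and the highest animals of the diets were nearly the same. The means were 105 ± 48.3 (SD, n = 5) and 101.1 ± 42.3 (SD, n = 5), with a log2 fold change of 0.05 (95% interval -0.71 to 0.81, edgeR, unadjusted p = 0.894).

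THRSP (ENSCSAG00000000616, chromosome 1, 69269746 to 69270199) encodes Spot 14, a small nuclear protein that is induced with the lipogenic enzymes. Normalized counts were 3.77, 0.224, 1.21, 10.2 and 12.9 in HFr replicates 1 to 5, and 0.686, 17.3, 24.4, 8.09 and 2.76 in Chow replicates 1 to 5. The lowest values rest on few reads, with a single estimated count in HFr replicate 2 and 3 counts each in HFr replicate 3 and Chow replicate 1. The means were 5.66 ± 5.602 (SD, n = 5) on HFr and 10.6 ± 10.01 (SD, n = 5) on Chow, and the log2 fold change of -0.90 had a 95% interval of -2.58 to 0.79 (edgeR, unadjusted p = 0.273). It was -0.32 without Chow replicate 3 and -1.45 without HFr replicate 5.

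**Figure D2:**
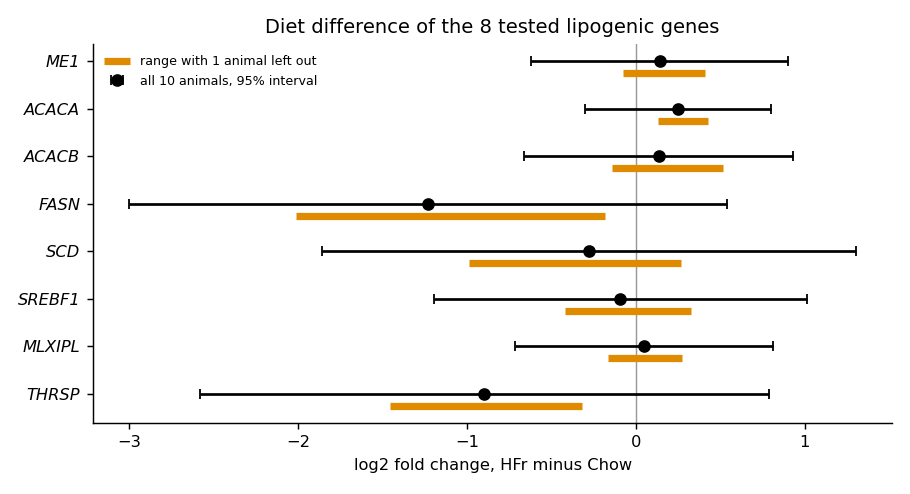
Log2 fold change of HFr over Chow (horizontal axis) for the 8 tested lipogenic genes, with the 95% interval from edgeR over all 10 animals (black) and the range of the values when each animal was left out in turn (orange). Every interval crosses 0, and the widest, that of FASN, runs from -2.999 to 0.54.

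Animals on the same diet differed more for these genes than for most transcripts. The biological coefficient of variation, edgeR's estimate of the spread between animals of one diet beyond counting error, had a median of 48.5% over the 8 genes and of 25.04% over all tested transcripts. All 8 were above that median, and 6 were above the 90th percentile of 38.9%. The most variable were THRSP with 89.3%, which 14 of the 7948 tested transcripts exceeded, FASN with 85.2%, which 24 exceeded, and SCD with 77.9%, which 31 exceeded. SREBF1 followed with 56.3%, then ACACB with 40.6%, MLXIPL with 40.3% and ME1 with 34.4%, while ACACA with 25.5% sat in the middle of the table. A spread above the 90th percentile was not particular to these genes. Of the 31 further pathway genes described below, GPAM was the most variable with 54.6%, followed by DGAT1 (47.6%) and ACSS2 (46.5%). None of the 31 reached the spread of THRSP, FASN, SCD or SREBF1. The least variable of the 31 was CS with 19.5%. Diet took at most 6.71% of the variance of the log2 level of a lipogenic gene (THRSP), with a median of 3.71% over the 8 genes and of 5.77% over all tested transcripts. These ranks are descriptions of 10 libraries, without a test. With the spread measured here, the standard errors of the log2 fold changes ranged from 0.26 (ACACA) to 0.83 (FASN).

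The same animals tended to be high or low for several of the genes, and they came from both diets. When the log2 levels were centered for each gene and averaged over the 8 genes, Chow replicate 1 was lowest at -1.19, followed by HFr replicate 2 at -0.998 and Chow replicate 5 at -0.66. At the other end, Chow replicate 2 was highest at 1.29, followed by HFr replicate 5 at 0.85 and HFr replicate 4 at 0.59. Chow therefore held both the lowest and the highest animal. Chow replicate 2 and HFr replicate 5 were above the median of the 10 animals for 8 of 8 genes, and HFr replicate 4 for 7 of 8. HFr replicates 1 and 2 and Chow replicates 1 and 5 were above it for a single gene each.

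**Figure D3:**
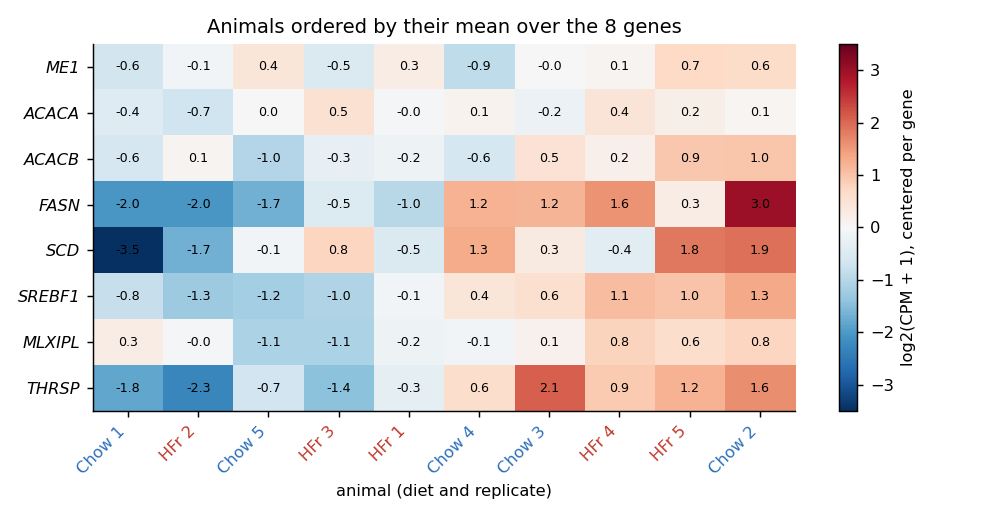
Heat map of the log2 normalized count (pseudocount 1) of each tested lipogenic gene, centered on the gene's mean over 10 animals, with animals ordered from the lowest to the highest mean (-1.19 to 1.29). Label colors give the diet (red HFr, blue Chow), and the diets are mixed along the order, with Chow animals at both ends.

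The question of whether the enzymes followed the transcript level of their regulators was asked over the 10 animals, for 8 genes against SREBF1 and MLXIPL (16 relations, Benjamini-Hochberg adjusted over the 16). FASN and THRSP followed SREBF1. Pearson's r of the log2 normalized counts was 0.89 for FASN (permutation p = 0.0014, adjusted p = 0.0115) and 0.90 for THRSP (permutation p = 0.0011, adjusted p = 0.0115), with Spearman's rho of 0.85 and 0.87 (permutation p = 0.0027 and 0.0021, adjusted p = 0.022 for both). Among the 7947 other tested transcripts, THRSP ranked 6 and FASN ranked 10 by their r with SREBF1, and the median r was 0.00. Without the 2 animals farthest from the median of SREBF1, HFr replicate 2 and Chow replicate 5, r was 0.83 for FASN (exact permutation p = 0.0103) and 0.90 for THRSP (exact permutation p = 0.0036). With the values centered within each diet, r was 0.90 and 0.92, as high as over all animals. No r was computed within a single diet of 5 animals.

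Both relations with SREBF1 depended for their call on Chow replicate 2. Without that animal r was 0.87 and 0.88, and the adjusted p was 0.0578 for both. The other 6 genes did not pass against SREBF1, with r of 0.71 for ACACB (permutation adjusted p = 0.1001), 0.65 for ACLY, 0.60 for SCD, 0.52 for ELOVL6, 0.41 for ACACA and 0.38 for ME1. The values for ACLY and ELOVL6 rest on 0 to 9 counts per animal.

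None of the 8 genes passed against MLXIPL with TMM scaling. The highest r was 0.71 for ACACB (permutation p = 0.0200, adjusted p = 0.1001, Spearman's rho 0.73), which with scaling by library size alone was 0.87 and passed (permutation adjusted p = 0.0093), and the others were 0.55 for FASN, 0.53 for THRSP, 0.47 for ACLY, 0.41 for ELOVL6, 0.29 for ME1, 0.08 for SCD and -0.09 for ACACA. SCD, for example, was at 184 CPM in HFr replicate 3, where MLXIPL was at 42.8 CPM, and at 84.2 CPM in HFr replicate 4, where MLXIPL was at 161 CPM. Whether the genes followed SREBF1 more closely than MLXIPL was not tested.

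**Figure D4:**
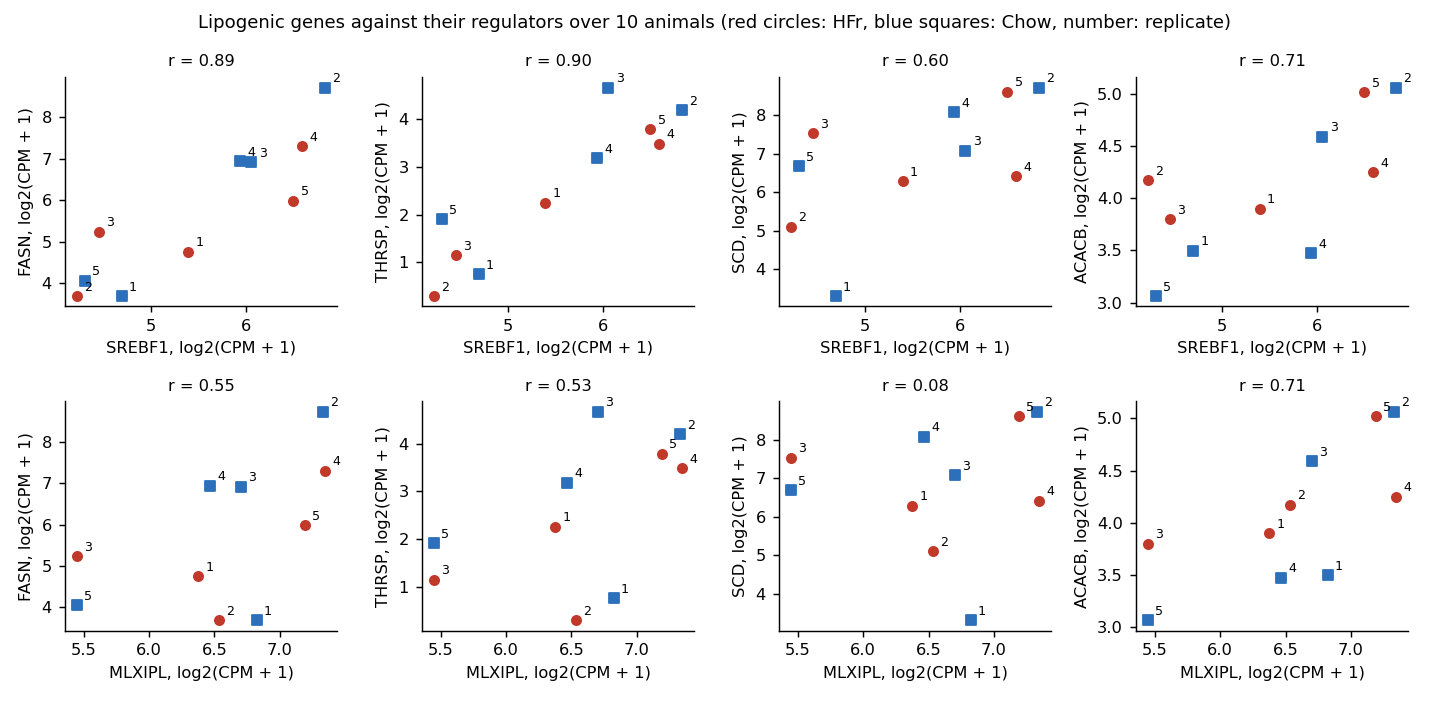
Log2 normalized counts (pseudocount 1) of FASN, THRSP, SCD and ACACB on the vertical axes against SREBF1 (upper row) and MLXIPL (lower row), 1 point per animal with its replicate number, red circles for HFr and blue squares for Chow. FASN and THRSP line up with SREBF1 (r = 0.89 and 0.90) with both diets along the line, whereas SCD and MLXIPL show r = 0.08.

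Biopsies can differ in their cell makeup, and in bulk tissue fewer cells of a type and less RNA per cell cannot be told apart. Of the 9 marker lists, the stellate cell and fibroblast list moved furthest with the lipogenic genes. Its summed level ranged from 223 to 407 CPM on HFr and from 179 to 827 CPM on Chow, with LRAT at 0 in every animal. Chow replicates 1 and 5, low for lipogenic genes, had 827 and 686 CPM, while Chow replicates 2 and 3 and HFr replicate 5, high for these genes, had 232, 179 and 223 CPM. HFr replicate 4, also high for them, had 277 CPM. The order was not strict, as HFr replicate 2, the second lowest animal for these genes, had 375 CPM. HFr replicates 1 and 3, which were less low, had 407 and 400 CPM. Pearson's r with this sum was -0.80 for THRSP, -0.80 for ACACB, -0.79 for FASN, -0.77 for SREBF1 and -0.70 for SCD, although 0 of 72 relations between lipogenic genes and marker sums passed after adjustment (permutation test, smallest adjusted p = 0.160). After adjustment of both values for the stellate cell and fibroblast sum, r with SREBF1 was 0.72 for FASN and 0.74 for THRSP, and neither passed (permutation adjusted p = 0.138). After adjustment for the hepatocyte sum it was 0.86 and 0.89, and both passed. Whether these cells account for the relation was not tested.

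Fat tissue is the other main site of lipogenesis, and of 8 adipocyte markers, 6 had counts, with a summed level of 150 to 252 CPM on HFr and of 105 to 292 CPM on Chow. Most of it came from the lipid droplet genes PLIN1 (42.0 to 250 CPM) and PLIN4 (24.8 to 108 CPM), while FABP4 lay between 1.97 and 11.5 CPM and LPL between 1.33 and 7.35 CPM. The defining secreted products ADIPOQ and LEP were at 0 in all 10 libraries. Of 7 skeletal muscle markers in the table, MYH2, MYH7, CKM and MYL1 were at 0, and the other 3 summed to between 0.377 and 2.74 CPM. Of the 8 lipogenic genes, ACACB moved with the mitochondrial percent of the counts (r = -0.83, permutation adjusted p = 0.0282 over 8 relations, Spearman's rho -0.79 with an adjusted p of 0.0688). Its r was -0.82 without the 2 animals at the extremes of that percent (exact permutation p = 0.0135). For the other 7 genes the adjusted permutation p was at least 0.266. The relations of FASN and THRSP with SREBF1 were 0.88 and 0.89 after adjustment for this percent, and both passed.

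A wider set of 45 genes of the pathway, of which 44 were in the table and 31 had enough counts, was read from the same fit. None of the 31 was called in either direction with edgeR (0 at an unadjusted p under 0.05 beside 4.29% of all tested transcripts, and 0 not overlapping between the diets beside 0.541%). Fold changes were above 0 for 19 and below 0 for 12, where 49.8% of all tested transcripts were above 0. Among genes that supply cytosolic carbon and NADPH, the highest log2 fold change was 0.29 for PC, pyruvate carboxylase, and the lowest was -0.17 for CS, citrate synthase. Among genes for SREBP processing and sterol sensing, the values ran from 0.39 for SCAP, the escort protein of SREBP, to -0.18 for INSIG2, which retains it in the endoplasmic reticulum. The 3 tested partners of the regulators lay close to 0, from 0.17 for USF2 to 0.02 for NFYA, with MLX, the partner of ChREBP, at 0.11.

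The list for control of acetyl-CoA carboxylase and malonyl-CoA held 8 genes, of which PRKAA1, PRKAA2, PRKAG1 and MLYCD had too few counts for the test. The log2 fold changes of the 4 tested genes ran from 0.21 for STK11 to -0.00 for PRKAG2, a subunit of AMP-activated kinase. Of 6 tested genes that ChREBP is known to bind, 3 had fold changes above 0, and the values ran from 0.47 for G6PC, glucose-6-phosphatase, to -0.27 for TXNIP. The lowest value of the whole set was that of GPAM, which starts glycerolipid synthesis from the fatty acids made. GPAM had 137, 41.0, 184, 206 and 490 normalized counts in HFr replicates 1 to 5 and 143, 578, 443, 362 and 270 in Chow replicates 1 to 5. The HFr animals other than replicate 5 were in the lower part of the Chow range or under it, and the log2 fold change was -0.76 with a standard error of 0.50 (edgeR, unadjusted p = 0.1498). Without HFr replicate 5 GPAM was at -1.34 and DGAT2, which completes triglyceride synthesis, at -0.82 (unadjusted p = 0.0110 and 0.0100, adjusted p = 0.953 for both from edgeR).

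The next question was which transcripts varied most like FASN, a single lipogenic enzyme, over the 10 animals. Over 7947 other tested transcripts the median r with FASN was -0.01, and 77 reached 0.8. The 10 named genes with the highest r were FMO4 and SHARPIN (both 0.94), VILL (0.93), CTBP1 (0.91), ITIH1 and INPP5B (both 0.90), and GPD1, SREBF1, BPHL and PCK2 (all 0.89). PCK2 encodes the mitochondrial phosphoenolpyruvate carboxykinase, and ITIH1 a plasma protein made by the liver. GPD1, which makes the glycerol backbone of triglycerides, had 16.9 normalized counts in Chow replicate 2, and its r was 0.88 without that animal. Without it, the r of the 10 genes ranged from 0.84 (PCK2) to 0.93 (SHARPIN). These values are descriptions, and all of them share the same 10 libraries and scaling. They were not adjusted for the marker sums, and FASN itself had an r of -0.79 with the stellate cell and fibroblast sum.

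The other lipogenic genes followed FASN to different degrees. SREBF1 ranked 9, THRSP ranked 26 (r = 0.86), SCD ranked 222 (0.72), ACACB ranked 500 (0.61), MLXIPL ranked 679 (0.55), ACACA ranked 875 (0.51) and ME1 ranked 2368 (0.23). Of the 31 pathway genes, 24 had an r with FASN above 0, beside 49.5% of all tested transcripts, and 8 had an r of at least 0.7, beside 3.22% of all. Those 8 were TKFC (0.86), which phosphorylates glyceraldehyde in fructose breakdown, GCKR (0.84), the glucokinase regulator, SREBF2 (0.79), the sterol-responsive relative of SREBF1, IDH1 (0.76), a cytosolic source of NADPH, PNPLA3 (0.75), ACSS2 (0.75), which makes acetyl-CoA from acetate, GPAM (0.73) and DGAT2 (0.70). Without Chow replicate 2, 5 of the 31 reached 0.7 (beside 2.87% of all), with ACSS2 at 0.68, GPAM at 0.66 and DGAT2 at 0.59, and the r of ME1 was -0.04. At the other end, PRKAB1, a subunit of AMP-activated kinase, had an r of -0.82. The other tested genes of its list went the other way. Their r was 0.58 for PRKAB2 and 0.48 for PRKAG2, also subunits of this kinase, and 0.27 for STK11.

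**Figure D5:**
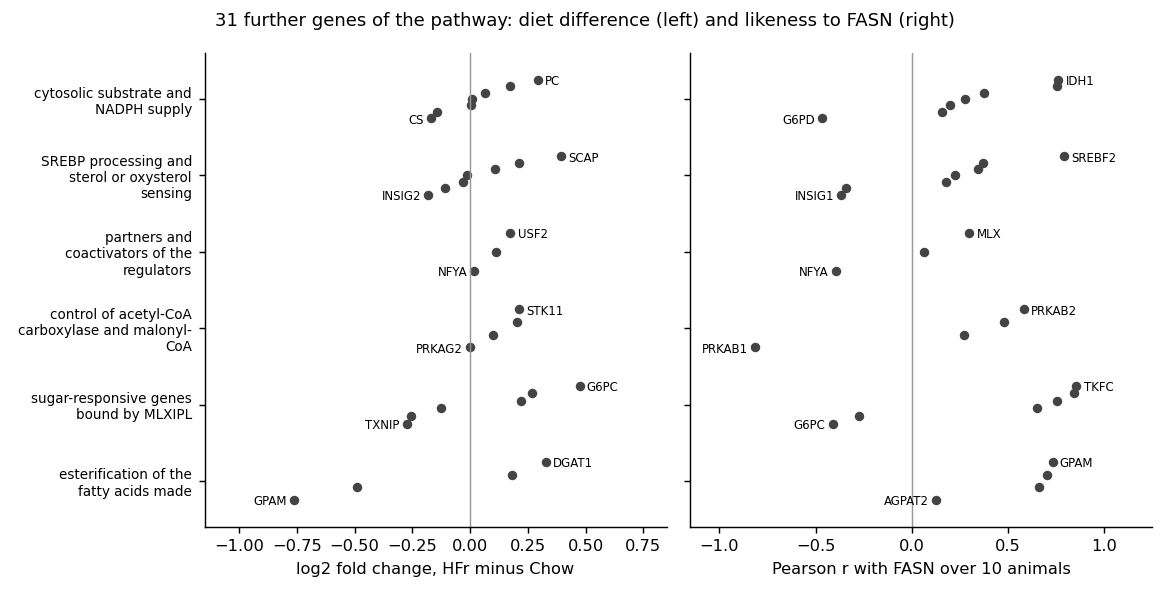
The 31 tested pathway genes in 6 groups, with the log2 fold change of HFr over Chow on the left and Pearson's r with FASN over 10 animals on the right, the highest and lowest gene of each group being named. Fold changes lie between -0.76 (GPAM) and 0.47 (G6PC), while r with FASN reaches from -0.82 (PRKAB1) to 0.86 (TKFC).

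By position, 4 of the 10 lipogenic genes (ACACA, ACLY, FASN and SREBF1) lie on chromosome 16 of ChlSab1.1, which held 5.76% of the tested transcripts. ACLY on this chromosome and ELOVL6 elsewhere were not among the tested transcripts, so the count and the share are over unlike sets. FASN and SREBF1 lie at opposite ends of the stretch that these 4 genes span, SREBF1 from 16845491 and FASN from 73982899.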

How the data were processed

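Polyadenylated RNA of 10 livers was sequenced from stranded libraries as paired-end reads. Per the labels and methods, the authors used CASAVA 1.8, FastQC, STAR 2.5.3a and Partek Flow, with ChlSab1.1 as the genome and Ensembl transcript models, and apportioned reads among transcripts by expectation-maximization. The deposited estimated counts were not normalized, and 97.7% of them were whole numbers. For the deposited normalized signal, the authors removed transcripts without reads and applied TMM scaling (16105 transcripts). These values differed from the estimated counts by a factor constant within each sample to 0.00147%. The strand setting of the counting is not given in the sources used here.

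Estimated counts were rounded, filtered with filterByExpr (minimum count 10, total 15), scaled by TMM and compared with edgeR 4.0.16 (quasi-likelihood, diet as the only term) in R 4.3.3. P-values were Benjamini-Hochberg adjusted over all 7948 tested transcripts, with a threshold of 0.05. Correlations used log2(CPM + 1) with two-sided permutation tests (100000 resamples, or all 40320 orders of 8 animals) in scipy 1.17.1. The procedure was tested on simulated data. Coordinates follow the deposited table, whose listed stop is excluded.

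The named genes were all 10 lipogenic genes, the highest and lowest fold change of each pathway list (or those with an unadjusted p under 0.05), and the 10 named genes most correlated with FASN. The further genes with an r of at least 0.7 with FASN, and PRKAB1 and PRKAB2, were named after their values were seen. Genes, lists and tests were chosen with earlier results of these data known. Alternatives were DESeq2 1.42.0, limma 3.58.1 (pseudocount 1 or 0.1), other scalings and filters, the study's equal-variance test, counts summed by gene, counts not rounded, a replicate block, the mitochondrial percent as a covariate, and each animal left out. Adjusting correlations for the mitochondrial percent and for marker sums, and the likeness to FASN without Chow replicate 2, were added after seeing the data. SLC25A1 was not analysed here.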

Additional observations from a re-analysis of the deposited data

Results flagged for a closer look

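Within 1 diet group, a single animal stood far from the other 4 for 3 of the 20 combinations of gene and diet examined, by Dixon's criterion (gap to the nearest animal over the whole range above 0.71 for 5 samples). For normally distributed values chance gives this in about 1 in 20 groups. The rule was applied to linear CPM, so the rate for these genes is not known, and the groups share animals. It was not applied to the log2 levels. On that scale (pseudocount 1) FASN was at 8.72 in Chow replicate 2, at 6.94 in the next Chow animal and at 3.69 in the lowest. FASN in Chow replicate 2 was at 421 CPM, with the next Chow animal at 122 CPM. ACACB in HFr replicate 5 was at 31.5 CPM, with the next HFr animal at 17.99 CPM. ELOVL6 in Chow replicate 2 was at 1.31 CPM, which is 6 estimated counts. The limits that a count of 0 allows were higher in Chow replicate 4 (1.52 CPM) and Chow replicate 5 (1.38 CPM). For ELOVL6, Chow replicate 2 therefore cannot be told apart from these animals. Chow replicate 2 and HFr replicate 5 were also the 2 animals with the highest mean over the lipogenic genes.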

How the results depend on the processing

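The count of transcripts with an unadjusted p under 0.05 (341) was 123 with scaling by library size only, 756 of 16066 without the filter, and 260 to 408 with 1 animal left out. The count of lipogenic genes under that threshold (0) was 1 with scaling by library size only, beside 1.55% of all tested transcripts. It was 0 to 1 with 1 animal left out, the 1 being without HFr replicate 4, beside 4.10% of all. The gene was FASN both times. For the pathway genes (0 of 31) it was 1 of 43 without the filter (SP1, log2 fold change 1.37), beside 4.71% of all tested transcripts. With 1 animal left out it was 0 to 3. The 3 were G6PC, DGAT2 and GPAM, of 32 tested without HFr replicate 5, beside 4.93% of all. Changes of direction were small beside the standard errors. SCD (-0.28) was 0.015 and 0.032 with limma at pseudocounts of 1 and 0.1, 0.11 with the replicate block, and -0.99 to 0.27 with 1 animal left out. SREBF1 (-0.09) was 0.034 with the mitochondrial percent as a covariate and -0.42 to 0.33 with 1 animal left out. MLXIPL (0.05) was -0.057 with library size only, -0.0016 with the replicate block, and -0.17 to 0.27 with 1 animal left out. With 1 animal left out, ACACB ran from -0.14 to 0.52 and ME1 from -0.078 to 0.41.

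Of the 16 relations with the regulators, 2 passed, against 7 with library size only (6 with SREBF1, and ACACB with MLXIPL), 3 after adjustment for the mitochondrial percent, 0 after adjustment for the stellate cell and fibroblast sum, and 0 (without Chow replicate 2) to 4 (without HFr replicate 2) with 1 animal left out. The r with MLXIPL changed sign for ACACA (0.61 with library size only, 0.23 adjusted for the mitochondrial percent, -0.31 to 0.27 with 1 animal left out), SCD (-0.12 and -0.47 adjusted for the hepatocyte and the stellate cell and fibroblast sums, -0.10 to 0.26 with 1 animal left out), ELOVL6 (-0.020) and ME1 (-0.058), the last 2 adjusted for the mitochondrial percent. The causes were not tested.

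The replicate numbers are shared by the diets, but deviations of same-numbered animals correlated at -0.04, -0.01, -0.04, 0.10 and -0.29, so they were not treated as pairs. With the replicate block, 271 transcripts had an unadjusted p under 0.05, FASN was at -0.42, and 0 lipogenic genes were called, so that the block changed no other call on them. ACLY and ELOVL6 had too few counts for the test, and the lowest THRSP values rest on 1 to 3 counts.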

Other observations

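Of the genes first read as adipocyte markers, CIDEA, which encodes a lipid droplet protein also made in fat-laden hepatocytes, had its highest levels in the 2 animals with the highest mean over the lipogenic genes. CIDEA was chosen after its values were seen. It was at 1.13, 0.224, 0.807, 0 and 8.11 CPM in HFr replicates 1 to 5 (for HFr replicate 4 the limit that a count of 0 allows, 3 counts, is 0.666 CPM), and at 0.457, 13.8, 0.550, 1.01 and 4.596 CPM in Chow replicates 1 to 5. Chow replicate 5, the third in this order, was among the lowest animals for the lipogenic genes. No other gene of that list with counts was highest in Chow replicate 2 or HFr replicate 5. In these animals, in this order, CIDEC was at 0.438 and 0.198 CPM and FABP4 at 1.97 and 5.74 CPM. LPL was at 2.85 and 6.13 CPM and PLIN4 at 43.6 and 43.5 CPM.

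PLIN1, another lipid droplet gene of the same list, was lowest in Chow replicates 2 and 3, both high for the lipogenic genes, and next lowest in Chow replicate 1, the lowest animal for them. It was at 42.0, 53.5 and 62.8 CPM in these 3 animals, at 250 CPM in Chow replicate 4 and at 186 CPM in Chow replicate 5, and on HFr it lay between 110.6 and 180 CPM.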
